A study of Mus musculus with 12 samples.

Results

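The starting pool of a CRISPR screen is the population of edited cells before any selection in an animal. Here it consisted of CD8+ T cells of C57BL/6 mice, transduced with a lentiviral library and kept in culture, of which a frozen portion served as the starting reference (SR). Its members were the 6 SR libraries, 3 replicates each read over 2 regions of the construct, out of 12 libraries in the series. All 689 constructs were used, and the tumour-infiltrating cells were not analysed here. The question asked of the pool was whether constructs against immune genes were represented like non-targeting constructs before transfer, and whether that differed with the genes or the number of genes targeted.

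All 6 libraries carried the same library and treatment. The cells were stimulated ex vivo for 24 h, transduced by spinfection with polybrene, and collected 48 h later. Of the cells frozen, 5 to 10% expressed the red fluorescent marker mKate2 of the vector. With the stated number of frozen cells this gives 100000 to 300000 transduced cells, or 145 to 435 cells per construct. Per the labels all genomic DNA went into the direct PCR of SR, whose amount they do not give for SR. The labels do not give the source of Cas9, and they do not say whether the SR replicates were separate cultures, so p-values here measure the spread between these libraries, which may be technical. The plasmid library was not analysed here, so representation set by cloning or packaging and representation set by growth in culture cannot be told apart.

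Each construct held 4 sgRNA spacers of 20 bases in tandem. A CRISPR screen of this kind counts integrated constructs in genomic DNA, and a construct becomes rare when it was rare in the virus or when cells carrying it divided less. The checkpoint class targeted receptors that restrain T cells. These were Pdcd1 and Ctla4, Tigit and Btla, Havcr2, which encodes TIM-3, and Adora2a, which encodes an adenosine receptor. The co-stimulatory class targeted receptors that add to activation, namely Cd28, Il2ra, whose product raises the affinity of the interleukin-2 receptor, and the tumour necrosis factor receptor family members Tnfrsf4 (OX40), Tnfrsf9 (4-1BB) and Tnfrsf18 (GITR). The TCR signalling class targeted Cd3e and Cd247, which are chains of the receptor complex, the kinase Zap70 and the adaptor Lat. The 336 checkpoint constructs formed 56 combinations of targets, the 180 co-stimulatory constructs 30 and the 89 TCR signalling constructs 15, and 84 constructs were non-targeting. In constructs with fewer than 4 targets the target spacers came first and non-targeting spacers filled the remaining positions, in 605 of 605 targeting constructs. There were 143 distinct target spacers, 9 or 10 per gene, and 946 distinct non-targeting spacers.

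Region 1 of the read-out covered spacers 1 and 2, and region 2 covered spacers 2 and 3. Spacer 4 lay in neither region and was known only from the construct it belongs to. It is the spacer whose identity went with abundance, so sets of constructs that share it are shown first. The following 2 constructs, both against 4 checkpoint genes, differ in their first 3 spacers, in lower case, and share spacer 4 against Ctla4, in capitals. They are written 5′ to 3′ as the deposited construct names list them.
Btla,Pdcd1,Tigit,Ctla4 spacer 1: tgggactcctcggttattta
Btla,Pdcd1,Tigit,Ctla4 spacer 2: caatacagggatacccacta
Btla,Pdcd1,Tigit,Ctla4 spacer 3: acctatcatacgtatcctgg
Btla,Pdcd1,Tigit,Ctla4 spacer 4: ACACAACACTGATGAGGTCC
Havcr2,Btla,Adora2a,Ctla4 spacer 1: ttgttacagccttattacac
Havcr2,Btla,Adora2a,Ctla4 spacer 2: ttcatagacctaatgtgact
Havcr2,Btla,Adora2a,Ctla4 spacer 3: agcacacaagcacgttaccc
Havcr2,Btla,Adora2a,Ctla4 spacer 4: ACACAACACTGATGAGGTCC

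Abundance is given as CPM, the scaled reads of a construct divided by the total of its library and multiplied by 1000000, averaged over both regions. The first of these constructs had 2080, 2980 and 2472 CPM in replicates 1 to 3, and the second had 1925, 2118 and 2193 CPM. Both stood above the equal share of 1451 CPM that each of 689 constructs would have in an even pool. The other 2 constructs with this spacer 4, Pdcd1,Adora2a,Tigit,Ctla4 and Tigit,Btla,Adora2a,Ctla4, had means of 2044 and 1596 CPM. The 4 constructs targeted 4 different combinations and lay within 1.57-fold of each other. This was the narrowest such group, as the others of 4 constructs spanned 2.12-fold, 3.03-fold and 4.61-fold. The whole pool spanned 937-fold, but a range over 689 constructs is not a like measure for 4.

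A second pair joins a non-targeting construct to one against Btla and Tigit. Its shared spacer 4, in capitals, is itself non-targeting.
Negative_control_75 spacer 1: caccgcggctatcaaattcg
Negative_control_75 spacer 2: gtctggtaaccgcgcgaacg
Negative_control_75 spacer 3: gaatgatgcgccgcggtaca
Negative_control_75 spacer 4: CGATTTGATATTACCGCGAT
Btla,Tigit,Negative,Negative spacer 1: tctttgaaccattgtgttat
Btla,Tigit,Negative,Negative spacer 2: ctggaaggtgaggcctaggc
Btla,Tigit,Negative,Negative spacer 3: ctataccgatacggagtgac
Btla,Tigit,Negative,Negative spacer 4: CGATTTGATATTACCGCGAT
Both members of the pair were rare, with levels of 6.40 and 6.60 on the log2(CPM + 1) scale, against a mean of 9.48 for all non-targeting constructs. This was a closer pair than most. Its targeting member was higher by 0.20, against a median of 0.86 over all 30 pairs of this kind, which ran from -1.35 to 3.27.

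The pool as a whole was uneven in every library. The libraries held 9963617 to 25646820 scaled reads, and the step between low values put the shallowest library, region 2 of replicate 2, at about 1705648 reads. The median construct of that library had about 1744 reads. The mean over replicates ran from 25.2 CPM for Negative_control_26 to 23633 CPM for Negative_control_19, which is 16.3 times the equal share. Below 0.1 times the equal share stood 37 constructs by their mean. By replicate there were 12, 65 and 56 such constructs, and 12 were below it in all 3 replicates at once. The lowest targeting construct, Adora2a,Pdcd1,Btla,Ctla4, had 56.9, 19.2 and 17.1 CPM in replicates 1 to 3. The highest, Lat,Cd3e,Cd247,Negative, had 8325, 9950 and 9580 CPM, and was followed by Cd28,Tnfrsf4,Negative,Negative with a mean of 7916 CPM and Tigit,Negative,Negative,Negative with 7179 CPM. The extremes thus held both non-targeting and targeting constructs.

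Replicate 1 stood apart from the others by its narrower spread. The SD of log2(CPM + 1) over constructs was 1.24 in replicate 1, 1.65 in replicate 2 and 1.61 in replicate 3, and the ratio of the 90th to the 10th percentile was 8.43, 19.7 and 17.8. The rank order was kept, with Pearson correlations over 689 constructs of 0.963, 0.973 and 0.986 between replicates 1 and 2, 1 and 3, and 2 and 3. The difference lay mostly among rare constructs. In the 138 constructs that were lowest in replicate 2, replicate 3 was on average lower than replicate 1 by a log2 difference of -0.96, and in the 138 highest it was higher by 0.13. Negative_control_19, the most abundant construct, rose by more than the mean of those 138 highest. It took 1.34% of the reads in replicate 1, 2.74% in replicate 2 and 3.01% in replicate 3. Values without replicate 1 are given where a call or a direction changed without it.

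Constructs against immune genes were on average more abundant than non-targeting ones in all 3 replicates. Their mean log2(CPM + 1) exceeded the non-targeting mean by 0.42, 0.44 and 0.44 in replicates 1 to 3, or 0.43 ± 0.0090 (SD, n = 3), a 1.35-fold difference. All 3 classes lay on the same side. The checkpoint class exceeded the non-targeting mean by 0.40 ± 0.0034 (SD, n = 3), the co-stimulatory class by 0.45 ± 0.029 (SD, n = 3) and the TCR signalling class by 0.52 ± 0.0098 (SD, n = 3). The exact sign-flip test, with both sides counted, gave p = 0.25 for each class, the smallest value that 3 replicates allow. Median abundance was 806 CPM for non-targeting constructs, 1171 CPM for checkpoint, 1204 CPM for co-stimulatory and 1248 CPM for TCR signalling constructs. Set against the non-targeting median in place of the mean, the class means exceeded it by 0.24, 0.28 and 0.36 for checkpoint, co-stimulatory and TCR signalling constructs, and set against the mean of all constructs by 0.023, 0.066 and 0.14.

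**Figure D1:**
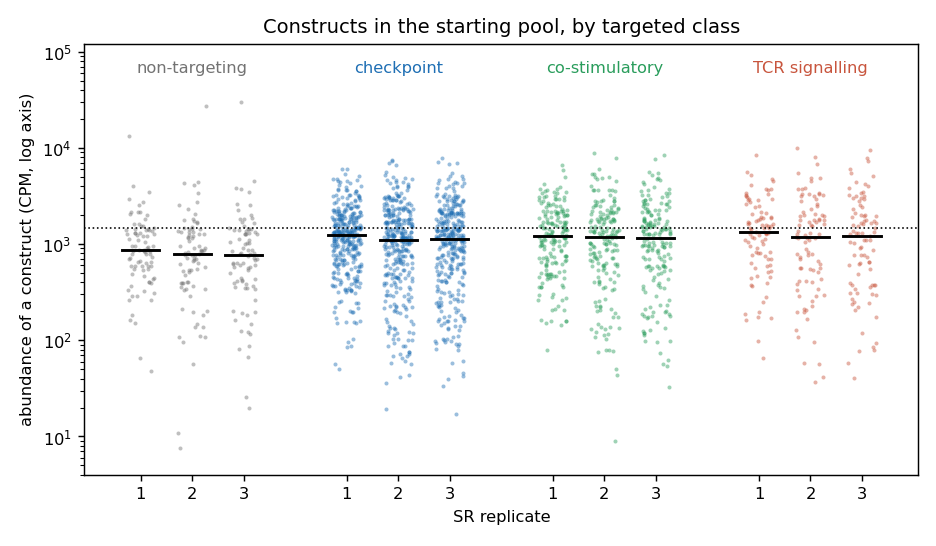
Abundance of every construct in CPM on a log axis, by class and SR replicate, with one point per construct, a bar at each median and a dotted line at the equal share of 1451 CPM. The classes overlap over nearly their whole range, the non-targeting medians are lowest in each replicate, and one non-targeting construct, Negative_control_19, stands far above the rest.

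These offsets were small beside the spread within a class. The SD between constructs was 1.52 among the non-targeting ones, 1.44 among checkpoint, 1.47 among co-stimulatory and 1.61 among TCR signalling constructs, several times the offset of 0.43. Class membership held 0.976% of the variance between constructs, with 0.436% of the degrees of freedom. The 3 differences between classes were smaller than those from the non-targeting constructs. The checkpoint class was lower than the TCR signalling class by a log2 difference of -0.12 ± 0.013 (SD, n = 3), and lower than the co-stimulatory class by -0.044 ± 0.025 (SD, n = 3). The co-stimulatory class was lower than the TCR signalling class by -0.073 ± 0.038 (SD, n = 3). Each of these 3 differences had one sign in all replicates and p = 0.25, the smallest the exact test allows. Constructs against genes of the receptor complex and its signal thus had the highest class mean. The SD between constructs divided by the square root of their number was 0.17 for TCR signalling, 0.11 for co-stimulatory and 0.079 for checkpoint constructs. The 3 differences did not clearly exceed these values, so the order of the classes is not settled. For the 2 sides of the offset of 0.43, the same measure was 0.17 for non-targeting and 0.060 for all targeting constructs. The offset was not tested over constructs.

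Shares of reads gave a narrower picture than log means, because one construct weighed on them. Non-targeting constructs were 12.2% of the library and took 9.96, 11.0 and 11.2% of the reads in replicates 1 to 3. Without Negative_control_19 they took 8.62, 8.28 and 8.20%. That construct alone made up 13.5, 24.9 and 26.9% of the non-targeting reads. Its rank did not rest on one region, since replicate 1 gave it 12833 CPM in region 1 and 14006 CPM in region 2.

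Constructs with the same spacer 4 lay closer together in abundance than constructs with the same spacer 1, 2 or 3. Among 175 constructs whose spacer 4 was also carried by another construct (79 spacers), the SD of log2(CPM + 1) was 1.504 over all of them and 0.74 within one spacer. The intraclass correlation, which is 0 when constructs with one spacer are no more alike than others and 1 when they are equal, was 0.76. For spacer 1 it was 0.0037 over 590 constructs, for spacer 2 it was 0.045 over 521 and for spacer 3 it was 0.063 over 339. The pattern was noticed in these data, so it is given as a description with no test. Constructs of one library share its amplification and depth.

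The likeness was present in each library and in both kinds of construct. Over the 6 libraries taken singly, the intraclass correlation of spacer 4 ran from 0.65 to 0.79, while that of spacer 2 ran from 0.013 to 0.059 and that of spacer 3 from 0.037 to 0.083. Among constructs with 4 targets, whose spacer 4 targets a gene, it was 0.78 over 85 constructs. Among those with fewer than 4 targets and the non-targeting ones, whose spacer 4 is non-targeting, it was 0.74 over 90 constructs. Spacer 3 reached 0.16 in that second set and -0.11 in the first.

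Pairs of constructs show the same in plain folds. The 117 pairs that shared spacer 4 and no other spacer had a median difference of 1.58-fold, and 29.9% of them differed 2-fold or more. Only 3 of these pairs belonged to one combination of targets. Pairs sharing only spacer 1 differed by a median of 2.42-fold (1369 pairs), only spacer 2 by 2.59-fold (1050 pairs) and only spacer 3 by 2.20-fold (484 pairs), against 2.52-fold for all 237016 pairs. The 1510 pairs that targeted one combination of genes differed by a median of 2.62-fold. The median for constructs against the same genes was thus not below that for all pairs.

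**Figure D2:**
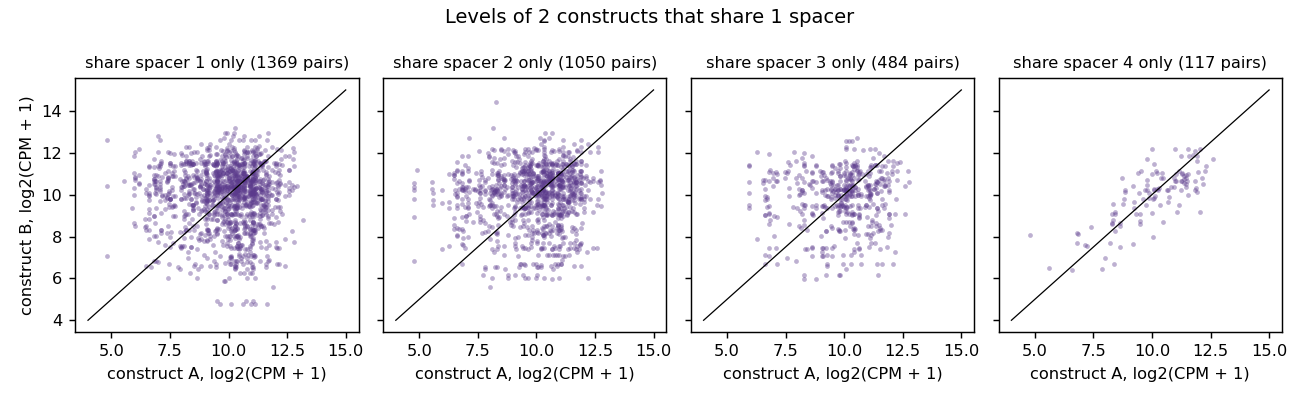
Mean log2(CPM + 1) of both members of each pair of constructs that share exactly one spacer, in 4 panels for spacers 1 to 4, with the line of equality. Pairs sharing spacer 1, 2 or 3 scatter over the square, and the 117 pairs sharing spacer 4 lie along the line with a median difference of 1.58-fold.

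Spacers that stood in position 4 of 3 or more constructs formed 13 groups, all against checkpoint genes. They are listed from the least to the most abundant group, with guanines in capitals because the guanine count of spacer 4 went weakly with abundance over all constructs. Among constructs with 4 targets, as in these groups, the adenine count went with abundance as strongly in the other direction.
group 1, Tigit: cctatcatacGtatcctGGt
group 2, Btla: Gattccttccaataacacaa
group 3, Btla: GGaaGGGacactaacctGGt
group 4, Havcr2: ctGaaattaGacatcaaaGc
group 5, Ctla4: tGtGatGGtGaatattcaca
group 6, Btla: ttGGGactcctcGGttattt
group 7, Pdcd1: caGcttGtccaactGGtcGG
group 8, Havcr2: tGttGaGatcGccctttaGc
group 9, Btla: tcatcctGcatGctaGacca
group 10, Ctla4: tGcccacaaaGtatGGcGGt
group 11, Ctla4: acacaacactGatGaGGtcc
group 12, Pdcd1: tctGGGcatGtGGGtccGGc
group 13, Havcr2: aGctGtaGtaGaGtccccat

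The lowest group had means of 121, 220 and 337 CPM for its 3 constructs, each against a different set of checkpoint genes. Group 5 had 914, 934 and 1088 CPM, and the highest group had 3102, 3646 and 3863 CPM. No construct of the lowest group reached a level of the highest in any replicate. The groups were ordered by these same levels, so a gap between the ends follows in part from the ordering. The replicates of the 3 highest-group constructs were 3258, 4031 and 4299 CPM for Adora2a,Tigit,Ctla4,Havcr2, 3035, 3079 and 3193 CPM for Adora2a,Tigit,Pdcd1,Havcr2, and 3174, 3943 and 3821 CPM for Ctla4,Btla,Pdcd1,Havcr2. The levels of one target gene ranged widely, as Btla spacers stood in groups 2, 3, 6 and 9 and Havcr2 spacers in groups 4, 8 and 13. Some groups were wide. Group 12 ran from 1013 to 4672 CPM, and in group 6 one construct stood at 416 CPM beside others at 1428 and 1791 CPM.

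**Figure D3:**
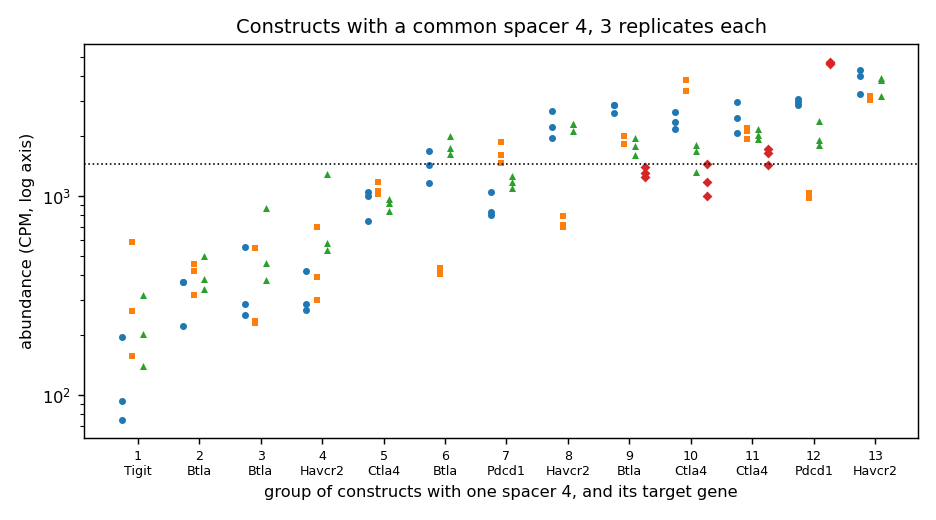
Abundance in CPM on a log axis of the constructs in the 13 groups that share one spacer 4, ordered by group mean, with a symbol per construct, 3 points per construct for the SR replicates and a dotted line at the equal share. At the ends of this order, group 1 lies between 75.1 and 589 CPM and group 13 between 3035 and 4299 CPM. Each holds different combinations of checkpoint targets.

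Base composition of spacer 4 went with abundance only weakly. The Spearman correlation between its guanine count and abundance was 0.24 over 689 constructs, and the guanine counts of spacers 1, 2 and 3 gave -0.045, 0.055 and 0.079. The largest further correlations were not confined to spacer 4. They were -0.16 for cytosine in spacer 3 and in spacer 4, -0.14 for adenine in spacer 2 and 0.12 for thymine in spacer 3. Among constructs with 4 targets only, spacer 4 gave 0.27 for guanine, -0.27 for adenine, 0.16 for thymine and -0.12 for cytosine. Constructs with 0 to 3 guanines in spacer 4 had a median of 678 CPM (57 constructs), those with 4 or 5 had 953 CPM (293), those with 6 or 7 had 1308 CPM (280) and those with 8 to 10 had 1586 CPM (59). The SD within these bins was 1.09 to 1.58 on the log2 scale, so the bins overlapped over most of their range. The GC content of all 4 spacers together gave a Spearman correlation of 0.050. A run of 4 thymines, which can end transcription by RNA polymerase III, was present in 17 constructs, whose median was 1143 CPM against 1128 CPM in the other 672.

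Sharing of spacer 4 between classes allowed targeting and non-targeting constructs to be compared on one spacer 4. There were 30 such pairs of a non-targeting and a targeting construct, each on a different spacer. Their levels went together, with a Pearson correlation of 0.78 and a Spearman correlation of 0.77 over the 30 pairs, which share their libraries as well as the spacer. The targeting construct was the more abundant in 24 of 30 pairs, by a mean log2 difference of 0.67, 0.77 and 0.81 in replicates 1 to 3, or 0.75 ± 0.074 (SD, n = 3), a 1.68-fold difference. The SD between pairs was 1.04. The targeting member was higher in 13 of 15 checkpoint pairs, 6 of 9 co-stimulatory pairs and 5 of 6 TCR signalling pairs. The widest pair was Negative_control_78 with 4.79 against Tnfrsf4,Il2ra,Tnfrsf18,Negative with 8.06 on the log2(CPM + 1) scale, and the pair of Negative_control_59 with 10.21 and Btla,Tigit,Negative,Negative with 8.86 went furthest the other way. This offset on matched spacers rests on 30 spacers, and its difference from the offset in the whole pool was not tested.

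By combination of targets, 72 of 101 means lay above the non-targeting mean and 100 lay within 1 SD of the non-targeting constructs around it. That SD is of single constructs, and means over several constructs vary less, so the count of 100 does not show likeness to non-targeting constructs. The limma test on the 3 replicates called 62 combinations higher (61.4%) and 16 lower (15.8%) at an adjusted p under 0.05. Together these were 77.2% of all combinations. The test sees only the close replicates, not the spread between constructs, and the same test called 63 of the 84 non-targeting constructs different from their own mean. By class, 33 checkpoint combinations were higher and 12 lower of 56, 18 co-stimulatory were higher and 3 lower of 30, and 11 TCR signalling were higher and 1 lower of 15. Centred on the mean of all constructs, which lies 0.38 above the non-targeting mean, the calls were 48 higher and 42 lower.

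The spread among combinations was close to that within them, scaled to their number of constructs. The SD of the 101 combination means was 0.577, and the SD within a combination divided by the square root of its 6 constructs was 0.606. Combinations held 15.2% of the variance between targeting constructs and 16.6% of the degrees of freedom, an intraclass correlation of -0.016. By this measure, constructs against one set of genes were no more alike than constructs against different sets. The median SD between constructs of a combination was 1.36 and the median SD between replicates 0.10.

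The highest combination, Btla+Ctla4+Pdcd1, stood above the non-targeting mean by 1.38, 1.57 and 1.63 in replicates 1 to 3 on the log2 scale. Its mean was 1.52 ± 0.13 (SD, n = 3; limma adjusted p = 7.34e-06), and its 6 constructs ran from 668 to 4933 CPM. Adora2a+Btla+Havcr2 followed with 1.49 ± 0.20 (SD, n = 3), then Zap70 alone with 1.33 ± 0.12 and Lat alone with 1.32 ± 0.14 (SD, n = 3). Tnfrsf4 alone had 1.32 ± 0.15 (SD, n = 3). These 5 come from all 3 classes. Zap70, Lat and Tnfrsf4 differed by less than their spread between replicates, as did the first and the second combination, while Adora2a+Btla+Havcr2 exceeded Zap70 in each replicate. Adora2a+Ctla4+Pdcd1 came next in rank with 1.06, 1.47 and 1.36 in replicates 1 to 3. Its 6 constructs ran from 881 to 3285 CPM, and their means were 3285, 3066, 1611, 1493, 1412 and 881 CPM.

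The lowest combination was Adora2a+Btla+Ctla4+Pdcd1, with -0.67, -0.99 and -1.02 in replicates 1 to 3 and a mean of -0.89 ± 0.19 (SD, n = 3; limma adjusted p = 4.42e-05). It contains all the genes of the highest combination. Its constructs ran from 31.1 to 1229 CPM. The difference was -0.25 with constructs under 50 CPM left out, which removes the one at 31.1 CPM, and -0.093 with medians over constructs, where it was no longer called (limma adjusted p = 0.421). Medians moved the other low combinations both ways, from -0.38 for Ctla4+Tigit to -1.58 for Il2ra+Tnfrsf18+Tnfrsf4. Il2ra+Tnfrsf18+Tnfrsf4 had -0.75 ± 0.23, Btla+Tigit -0.66 ± 0.18, Ctla4+Tigit -0.61 ± 0.15 and Adora2a+Ctla4+Pdcd1+Tigit -0.49 ± 0.25 (SD, n = 3 each). Within each of these combinations single constructs exceeded the non-targeting median of 806 CPM, up to 2845 CPM in Il2ra+Tnfrsf18+Tnfrsf4. Without replicate 1, 24 combinations were called lower in place of 16.

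**Figure D4:**
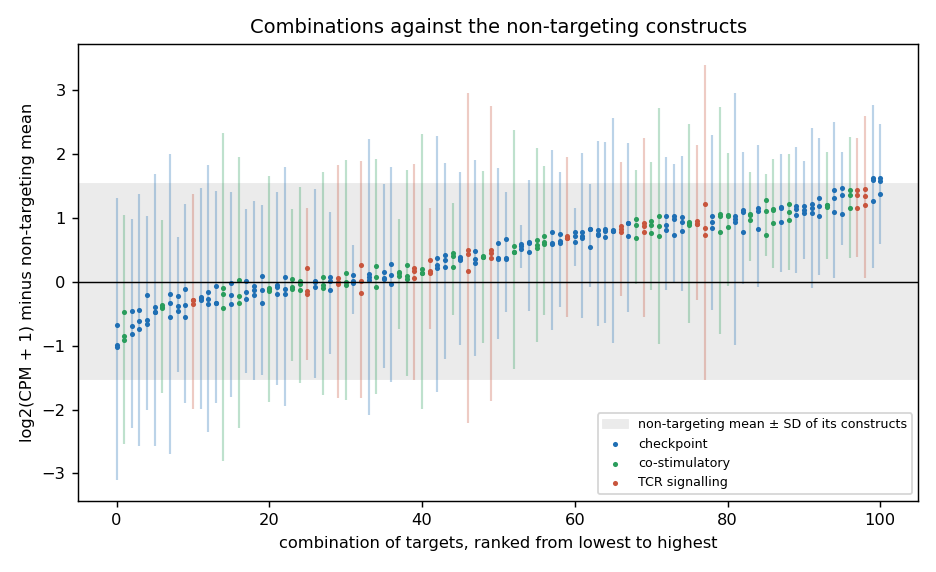
Difference of each of the 101 combinations from the non-targeting mean in log2(CPM + 1), ranked, with 3 points for the SR replicates, a line of ± 1 SD over the constructs of the combination and a grey band of ± 1.52, the SD of the non-targeting constructs. The replicates of a combination lie close together while the construct lines span the band, and the classes are mixed along the rank from -0.89 to 1.52.

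Single-target combinations varied widely within each class, from -0.36 to 1.15 in the checkpoint, from -0.049 to 1.32 in the co-stimulatory and from 0.0050 to 1.33 in the TCR signalling class. Among checkpoint genes, Tigit alone stood at 1.15 ± 0.076, Havcr2 at 1.03 ± 0.17 and Pdcd1 at 0.91 ± 0.16 above the non-targeting mean (SD, n = 3). Adora2a had 0.37 ± 0.092, Ctla4 had -0.14 ± 0.065 with an adjusted p of 0.0563 in limma, and Btla was lower with -0.36 ± 0.18 (SD, n = 3). Without replicate 1 Ctla4 stood at the same -0.14 and was called (limma adjusted p = 0.0113). Among co-stimulatory genes, Tnfrsf9 stood at 1.09 ± 0.12, Cd28 at 0.36 ± 0.11, Tnfrsf18 at 0.16 ± 0.036 and Il2ra at -0.049 ± 0.081 (SD, n = 3). Of the TCR signalling genes, Zap70 and Lat were among the highest of all combinations, whereas Cd247 with 0.035 ± 0.22 and Cd3e with 0.0050 ± 0.046 (SD, n = 3) were not called. Without replicate 1 Cd247 stood at -0.080, also not called. With medians over constructs Cd3e was higher by 0.38 and Il2ra lower by -0.60, both called in limma with adjusted p = 0.00294 and 0.00293. Centred on the mean of all constructs, Cd3e was instead called lower with -0.37 and Cd247 with -0.34 (limma adjusted p = 0.000703 and 0.0132). Cd247 and Cd3e differed between their own 6 constructs by SDs of 1.86 and 1.83, with ranges of 113 to 4805 CPM and 108 to 3084 CPM. All 4 TCR genes together, Cd247+Cd3e+Lat+Zap70, had 0.34, 0.16 and 0.13 in replicates 1 to 3 over 5 constructs.

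Within a class, combinations with a given gene were compared with those without it. For each gene these were 26 against 30 in the checkpoint, 15 against 15 in the co-stimulatory and 8 against 7 in the TCR signalling class. The SD given covers the spread between replicates only. Single combination means had an SD of 0.577 over all 101, and that spread did not enter the comparison. In the checkpoint class, those with Pdcd1 were higher by 0.20 ± 0.017 and those with Havcr2 by 0.15 ± 0.026, while those with Ctla4 differed by -0.080 ± 0.025 and those with Btla by -0.049 ± 0.0024 (SD, n = 3). Combinations with Adora2a and Tigit differed by -0.013 ± 0.033 and -0.028 ± 0.034 and changed sign between replicates. In the co-stimulatory class, combinations with Tnfrsf9 differed by -0.31 ± 0.070, with Il2ra by -0.18 ± 0.040 and with Tnfrsf18 by -0.13 ± 0.033, against 0.058 ± 0.029 with Cd28 and -0.0076 ± 0.010 with Tnfrsf4, which changed sign (SD, n = 3). In the TCR signalling class, combinations with Lat were higher by 0.43 ± 0.044, and those with Cd247 and Cd3e lower by -0.36 ± 0.10 and -0.25 ± 0.060 (SD, n = 3), while Zap70 changed sign with 0.025 ± 0.078. The exact sign-flip p was 0.25, its smallest value, for the 11 genes with one sign in all replicates. From medians over constructs several of these differences shrank or turned, to -0.046 for Tnfrsf9, 0.019 for Tnfrsf18 and 0.20 for Lat.

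Abundance did not follow the number of target genes in one direction. Over all targeting constructs, those with 1 target exceeded the non-targeting mean by 0.57 ± 0.058, with 2 by 0.38 ± 0.010, with 3 by 0.44 ± 0.0079 and with 4 by 0.40 ± 0.0031 (SD, n = 3). The slope was -0.034 ± 0.013 per target (SD, n = 3). It was 0.048 ± 0.012 in the checkpoint, -0.15 ± 0.022 in the co-stimulatory and -0.045 ± 0.0074 in the TCR signalling class (SD, n = 3), each with one sign in 3 of 3 replicates and an exact p of 0.25, the smallest possible. Computed from medians over constructs, the checkpoint slope was 0.00093, the co-stimulatory slope 0.0086 and the TCR signalling slope -0.10. The number of targets held 0.178% of the variance between targeting constructs, with 0.497% of the degrees of freedom.

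**Figure D5:**
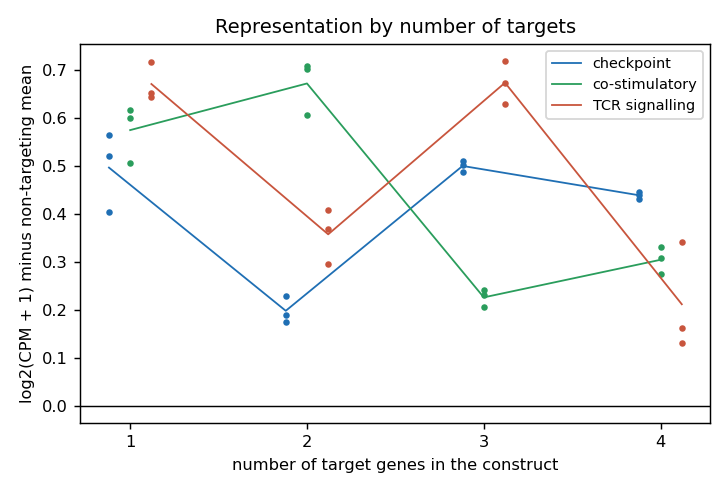
Difference from the non-targeting mean in log2(CPM + 1) against the number of target genes, for the 3 classes, with points for the SR replicates and lines through their means. All class means lie above 0, between 0.20 and 0.67, and no class rises or falls steadily from 1 to 4 targets.

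By single construct, limma called 405 higher (58.8%) and 182 lower (26.4%) than the non-targeting mean, together 85.2%. The called shares were 86.6% of checkpoint, 86.7% of co-stimulatory, 86.5% of TCR signalling constructs, beside the 63 of 84 non-targeting ones. Constructs sharing their first spacer differed from each other almost as much as any others. Among the 62 first spacers carried by 5 or more constructs, the most and least abundant construct differed by a median of 10.5-fold, from 2.19-fold to 204-fold.

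The 2 read-out regions gave nearly the same levels in replicate 1 and differed most in replicate 2. Region 2 was lower than region 1 by a mean log2 difference of -0.16 ± 0.10 (SD, n = 3). The SD of that difference over constructs was 0.26, 0.98 and 0.45 in replicates 1 to 3. Both regions have the same total in CPM, so this is no general loss in region 2. Its log2(CPM + 1) values spread more widely, with SDs of 1.31, 2.12 and 1.76 against 1.19, 1.54 and 1.52 in region 1. The widest scatter belonged to replicate 2, whose region 2 library was the shallowest. In that library 9 constructs were at 0, which had between 22.8 and 424 CPM in region 2 of replicate 1 and between 15.3 and 250 CPM in region 1 of the same replicate. The part of depth in these zeros was not tested. Limma called 0 constructs between the regions (0%), with 82 at an unadjusted p under 0.05. With the replicate as a block it called 0 as well, with 131 at an unadjusted p under 0.05. Among constructs with a mean of at least 50 CPM, the largest fitted difference was in Tnfrsf18,Cd28,Il2ra,Negative. It had 213, 205 and 215 CPM in region 1 and 102, 0 and 43.1 CPM in region 2. In the other direction among these constructs, Tnfrsf9,Negative,Negative,Negative had 958, 562 and 807 CPM in region 1 and 1165, 1173 and 1051 CPM in region 2. Neither difference passed the adjustment.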

How the data were processed

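The deposited values are scores, which the authors made by scaling reads and rounding them to whole numbers, as the values themselves show. No source used here gives the scaling factor. Bowtie2 was used, per the submitters' processing notes, with no version or role stated. From the low values the step per read was estimated at 1.56 to 9.34 scaled reads, with 96.7 to 100% of 60 values per library within 0.5 of a whole multiple, against 10.7 to 64.1% by chance. It is clear only for replicate 2, so other depths in reads are not given.

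Scaled reads were divided by library totals to give CPM and averaged over both regions, and log2(CPM + 1) was used with no filter. Fold changes on this scale understate those of rare constructs. The non-targeting mean of each replicate was subtracted. SR columns carry no replicate number and were numbered by the table they stand in. Combinations, constructs and regions were tested in R 4.3.3 by limma 3.58.1, and p-values were adjusted by the Benjamini-Hochberg method over all 101 combinations or 689 constructs, after a check on simulated data. Classes, genes and slopes were tested by exact sign-flipping, both sides counted. The regions of one replicate were taken as read-outs of one DNA sample, by the table they stand in. Their deviations correlated with 0.77, 0.35 and 0.29 in replicates 1 to 3, each over 0.1. Between tables region 1 of replicate 3 and region 2 of replicate 2 correlated with 0.41, and region 1 of replicate 2 and region 2 of replicate 3 with 0.27, so the values alone tell only replicate 1 apart. Named items were all single-target combinations, the 5 highest and 5 lowest combinations and constructs, the 3 largest region differences each way and Adora2a+Ctla4+Pdcd1. Region differences were named only among constructs with a mean of at least 50 CPM. Members and lists were chosen with earlier results of these data known, and the account of spacer 4 was added after its values were seen. Alternatives were another pseudocount, a filter at 50 CPM, each region alone, other centres and summaries, each replicate left out, equal spread and Negative_control_19 left out. Of the tables, 15 further columns were not used, and 1 emptied line was left out. All 15 target symbols were found in a RefSeq gene table, used for names only.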

Additional observations from a re-analysis of the deposited data

How the results depend on the processing

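The class differences and the spacer 4 results kept their direction under every setting tried. The class differences ran from 0.401 to 0.404 (checkpoint), 0.44 to 0.46 (co-stimulatory) and 0.51 to 0.52 (TCR signalling) with one replicate left out. Without Negative_control_19 they were 0.46, 0.51 and 0.58. With one replicate left out, the difference on a shared spacer 4 ran from 0.72 to 0.79 and the intraclass correlation of spacer 4 from 0.74 to 0.79. The difference on a shared spacer 4 was 0.66 with constructs under 50 CPM left out and 0.82 in region 2 alone. Combinations called lower were 16 as reported, 26 with constructs under 50 CPM left out, 27 centred on the non-targeting median and 42 centred on all constructs. Leaving out a replicate gave 13 to 24 lower and 60 to 64 higher combinations, 150 to 195 lower and 358 to 422 higher constructs, and 0 region calls. Computed from medians, the co-stimulatory slope reversed to 0.0086 and 8 genes stood above 0 in place of 5. Single combinations near 0 reversed. Cd247 was -0.085 with constructs under 50 CPM left out, -0.13 on the non-targeting median and -0.34 on all constructs, the last called lower. It was -0.42 with medians and from -0.080 to 0.14 with one replicate left out, none of them called. Cd3e was -0.11 under the 50 CPM filter, -0.16 on the non-targeting median and -0.37 on all constructs, the last called lower. It was -0.031 in region 2 and from -0.021 to 0.022 with one replicate left out. With medians it was 0.38 and called higher, the opposite direction. Tnfrsf18 was -0.0047 on the non-targeting median, and called lower on all constructs with -0.22 and with medians with -0.18. On all constructs Adora2a was -0.0067, Cd28 -0.022 and Cd247+Cd3e+Lat+Zap70 -0.17, of which only the last was called. Ctla4 was 0.041 in region 2 but called lower in region 1 with -0.26, with constructs under 50 CPM left out with -0.26, on the non-targeting median with -0.30, on all constructs with -0.52, with medians with -0.24 and, near its reported value, with a pseudocount of 10, with equal spread and without replicate 1. Il2ra was 0.011 without Negative_control_19 but called lower with -0.17, -0.21, -0.43 and -0.60 under the 50 CPM filter, the non-targeting median, all constructs and medians. Adora2a+Btla+Ctla4+Pdcd1 lost its call with medians, Btla in region 2 with -0.29, Cd247+Cd3e+Lat+Zap70 under the 50 CPM filter and on the non-targeting median, and Tnfrsf18 in 5 settings that kept its sign. Another centre, or leaving out Negative_control_19, changed only the reference, so all combinations moved by the same amount within a replicate. The 50 CPM filter also took Negative_control_26 and Negative_control_78 out of the non-targeting mean, so it moved the reference as well. The cause of the other changes was not tested. The replicate block moved no region call, 0 with and without it. Region 2 of replicate 2 had the fewest estimated reads and the widest scatter, and depth as its cause was not tested.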
